A study of Mus musculus with 7 samples.

Results

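The centromere and kinetochore genes described here are 34 genes that encode CENP proteins and the subunits of the outer kinetochore. They were chosen by name, and all 34 were among the 24341 genes of the expression table. All 34 also passed the filter on low values, which left 10541 genes for testing. RNA-seq was performed on 4 preleukemic and 3 leukemic samples of B-cell precursor (BCP) cells from the spleens of Eμ-Ret mice. The mice were all hemizygous for the transgene on a BALB/c background. The transgene is an oncogenic Ret fusion driven by the IgH enhancer, so every sample carried it and no transgene-negative control was among the 7 samples. As the study describes them, the preleukemic mice were young and healthy and the leukemic mice were older and moribund, so age and disease state cannot be told apart. BCP cells were sorted per the labels, whereas the study's culture methods describe leukemic spleen cells that were mostly not enriched. The labels do not say whether each sample came from a separate mouse. The p-values set the difference between the groups against the spread of these samples within the groups. Values are FPKM, which scales the fragments of a gene by its length and by the size of the library.

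The kinetochore is the protein structure on each centromere that holds a chromosome to the microtubules of the mitotic spindle. Its base is chromatin in which the histone variant CENP-A, placed by the chaperone HJURP and the MIS18 complex, marks the centromere through cell divisions. The constitutive centromere-associated network (CCAN) binds this chromatin, and the MIS12 and NDC80 complexes link it to microtubules with the help of the SKA complex. Most of these genes are transcribed mainly in dividing cells, and many peak late in the cell cycle. Errors at the kinetochore can leave daughter cells with too many or too few chromosomes, and the leukemia of Eμ-Ret mice is hyperdiploid. The study also found extra chromosomes in preleukemic cells.

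Many genes of this kind share short promoter motifs that act in dividing cells, so the sequences around the transcription start are shown before the expression values. RefSeq promoters (GRCm38.p6) were found for 31 of the 34 genes. The window held 150 bases, from 100 bases before the start to 50 bases after it, and each motif was searched on both strands. The cell cycle homology region (CHR), TTTGAA, was found in 9 of 31 windows (29.0%) and in 8.08% of 27025 windows of the same length over all promoters. The 9 genes were Cenpa, Hjurp, Oip5, Cenpn, Cenpw, Ndc80, Spc25, Ska3 and Cenpf. The CCAAT box, CCAAT, was found in 17 of 31 windows (54.8%) against 24.0% of all windows. An E2F motif, TTCCCGC, was found in 7 of 31 (22.6%) against 2.61%, and a second form, TTGGCGC, in 0 of 31 against 1.42%. CHR and CCAAT stood together in 6 of 31 windows (19.4%) against 1.92%, and in Cenpw they overlapped. These matches describe letters, not binding. Below are 5 windows with a CHR, chosen to cover CENP-A, its deposition, the NDC80 complex and the corona, 5′ to 3′ on the strand of the gene, with the motifs or their reverse complements in capitals.
Cenpa, chr5:30666786-30666935, plus strand: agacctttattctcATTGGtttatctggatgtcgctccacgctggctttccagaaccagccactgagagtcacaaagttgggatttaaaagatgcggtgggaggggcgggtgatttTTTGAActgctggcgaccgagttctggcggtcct
Oip5, chr2:119618456-119618605, minus strand: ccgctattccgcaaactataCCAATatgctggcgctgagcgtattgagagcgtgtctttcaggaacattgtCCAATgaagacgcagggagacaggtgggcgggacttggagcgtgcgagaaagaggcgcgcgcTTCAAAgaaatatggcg
Spc25, chr2:69206164-69206313, minus strand: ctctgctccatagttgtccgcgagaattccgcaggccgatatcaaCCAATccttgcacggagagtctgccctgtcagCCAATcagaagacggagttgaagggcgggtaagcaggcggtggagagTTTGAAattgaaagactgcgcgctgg
Ndc80, chr17:71526808-71526957, minus strand: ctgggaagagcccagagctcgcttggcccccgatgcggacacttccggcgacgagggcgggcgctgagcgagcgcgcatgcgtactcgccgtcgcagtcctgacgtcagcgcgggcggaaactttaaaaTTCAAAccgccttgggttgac
Cenpf, chr1:189688037-189688186, minus strand: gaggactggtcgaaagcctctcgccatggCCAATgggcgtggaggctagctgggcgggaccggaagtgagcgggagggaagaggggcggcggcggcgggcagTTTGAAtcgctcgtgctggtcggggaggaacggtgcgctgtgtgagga
Below are the windows of Cenpt and Cenpv, shown because these were the genes of the list that passed the test between the groups. Neither window held any of the motifs. Both windows lay inside the RefSeq spans of these minus-strand genes, which reach chr8:105855086 for Cenpt and chr11:62539869 for Cenpv. Promoters of starts farther upstream were not searched, so the motifs may be present there.
Cenpt, chr8:105851959-105852108, minus strand: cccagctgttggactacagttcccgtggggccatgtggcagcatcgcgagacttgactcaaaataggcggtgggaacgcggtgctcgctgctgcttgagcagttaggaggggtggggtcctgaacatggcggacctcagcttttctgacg
Cenpv, chr11:62539212-62539361, minus strand: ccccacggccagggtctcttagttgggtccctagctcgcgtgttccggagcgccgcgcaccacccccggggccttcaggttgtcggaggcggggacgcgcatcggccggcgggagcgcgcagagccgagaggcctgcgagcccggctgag

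The genes were listed above the floor of the table (0.01 FPKM) in every sample, with mean levels from 2.90 FPKM (Cenpv) to 110.7 FPKM (Pmf1). Leukemic and preleukemic samples were compared on log2(FPKM + 1) with limma, and a gene was called where the p adjusted by Benjamini and Hochberg over all genes tested was under 0.05. The added 1 shrinks the fold change of weakly expressed genes. Of the 34 genes, 2 (5.88%) were called and both rose in leukemic cells, Cenpt and Cenpv. Over all genes tested, 14.7% were called, 8.47% higher and 6.26% lower in leukemic cells, so the share of called centromere and kinetochore genes was below the background. These were 893 genes higher and 660 lower, against 754 and 907 after quantile normalization and 683 and 2236 after scaling to equal FPKM totals, and Cenpt and Cenpv were called under both. No gene of the list was called lower by limma. At an unadjusted p under 0.05, 6 of the 34 were higher and 1 was lower, whereas 34% of all genes tested passed that level in either direction. The samples of the groups did not overlap for 4 of the 34 genes (Cenpt, Cenpv and Cenpq higher, Cenpb lower) and for 32% of all genes.

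Most fold changes lay on the same side without passing the test. The log2 fold change was above 0 for 29 of 34 genes, and its median was 0.39 (range −0.31 to 1.94), against a median of −0.02 over all genes tested. After scaling to equal FPKM totals it was above 0 for 24 genes (Mis18a, Cenpc1, Cenpo, Zwint and Ska2 were then below 0), with a median of 0.24 against −0.17 over all genes. The 32 genes that were not called had log2 fold changes from −0.31 to 0.71 and adjusted p from 0.0865 to 0.877 (limma). The median was 0.20 without leukemic 1, 0.25 without preleukemic 2 and 0.60 without leukemic 3. The number called higher was 0 without preleukemic 3 or preleukemic 4 (5 and 4 at an unadjusted p under 0.05). It was 1 without leukemic 2 or preleukemic 2, and 3 without leukemic 3, when Cenpa and Cenpq were called and Cenpv was not. Over all genes tested, 200, 107, 870, 295 and 711 were called higher in these fits, in the same order, against 893 with all samples. The loss of calls without preleukemic 2, 3 or 4 was thus not particular to the list. In bulk samples a larger share of dividing cells and more RNA per dividing cell cannot be told apart.

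**Figure D1:**
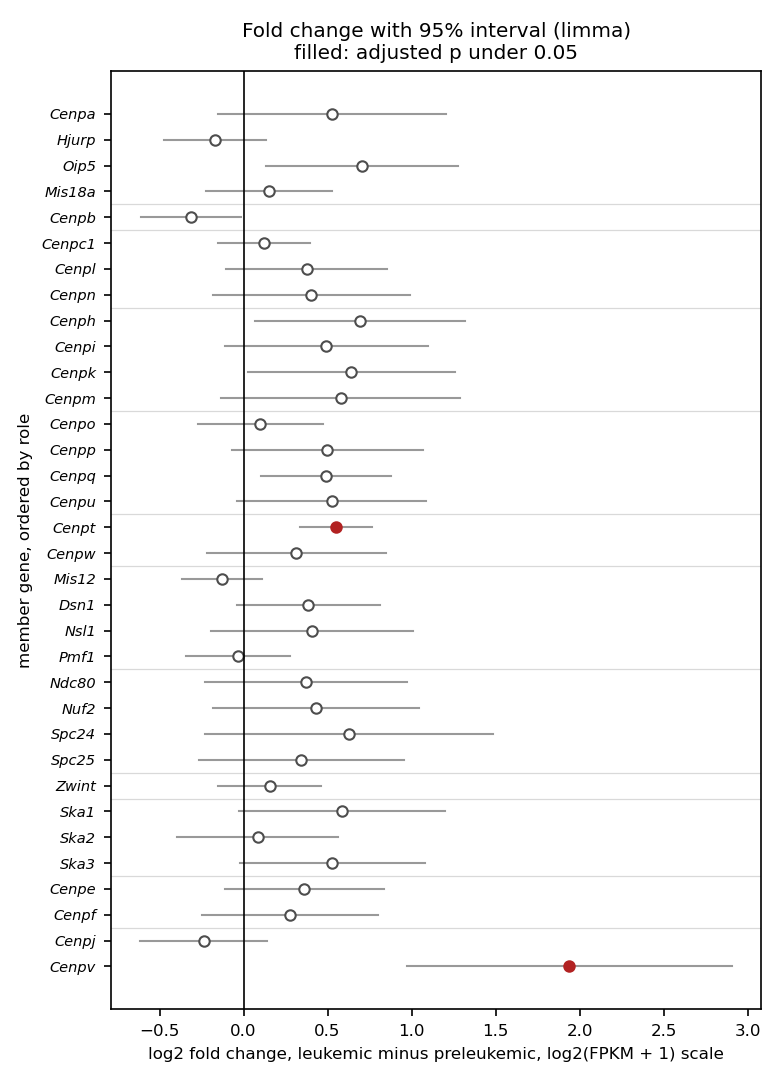
Log2 fold change (leukemic minus preleukemic, log2(FPKM + 1) scale) of the 34 genes, ordered by role, with the 95% interval from limma over 3 leukemic and 4 preleukemic samples. Filled points are Cenpt and Cenpv, the 2 genes with an adjusted p under 0.05, and 29 of the 34 points lie right of 0.

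Cenpt gave the narrowest interval of the called genes. CENP-T is a DNA-contacting CCAN subunit with a histone fold that recruits the NDC80 complex. Cenpt (chr8:105844669-105855086, GRCm38) was at 14.2, 12.5 and 14.3 FPKM in the leukemic samples and at 9.52, 8.23, 8.97 and 9.33 FPKM in the preleukemic samples. Every leukemic sample lay above every preleukemic sample, and the levels within each group were close. The log2 fold change was 0.55 (SE 0.09, 95% interval 0.34 to 0.76, adjusted p = 0.0152, limma). The adjusted p was 0.0549 without preleukemic 3 and 0.0572 without preleukemic 4, while the log2 fold change stayed between 0.51 and 0.61 as each sample was left out. The unadjusted p in these 2 fits was 0.002 and 0.00156 (limma), and both called fewer genes over all genes tested. Its histone-fold partner Cenpw, which pairs with CENP-T, had a log2 fold change of 0.31 (SE 0.23, adjusted p = 0.357), and its groups overlapped, at 11.7, 9.37 and 6.54 FPKM in leukemic and 8.83, 4.91, 7.25 and 7.67 FPKM in preleukemic samples.

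Cenpv changed most in size but stood at the lowest level. CENP-V has been described at centromeric chromatin and on microtubules, and the gene is grouped here with CENP names that also act at other sites. Cenpv (chr11:62524944-62539869) was at 2.56, 7.40 and 7.37 FPKM in leukemic samples and at 1.87, 0.493, 0.263 and 0.353 FPKM in preleukemic samples. The groups did not overlap, but leukemic 1 lay nearer to preleukemic 1 than to the other leukemic samples. The log2 fold change was 1.94 (SE 0.41, 95% interval 0.97 to 2.91, adjusted p = 0.0261, limma), and it was 3.00 with a pseudocount of 0.1 in place of 1. At the depth estimated from the table, these levels correspond to about 98.8 fragments in leukemic 3 and about 3.02 in preleukemic 3, so counting error alone is large in the preleukemic samples. The call was lost without leukemic 2, leukemic 3, preleukemic 2, preleukemic 3 or preleukemic 4, with adjusted p from 0.0538 to 0.0829.

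Summed red cell, macrophage and neutrophil markers were higher in every leukemic sample than in every preleukemic sample. Sums for T and NK cells and for plasma cells overlapped. The summed level of red cell markers ranked leukemic 2, leukemic 3, leukemic 1 and preleukemic 1 above the rest, as Cenpv did. All 13 red cell precursor markers tested, of 14 in the table, were called higher in leukemic samples. Their summed level was 5195, 25644 and 12378 FPKM in leukemic 1 to 3, 2527 FPKM in preleukemic 1 and 238 to 282 FPKM in the other preleukemic samples. Of the markers of macrophages 7 of 11 were called higher, with sums of 165 to 367 FPKM in leukemic and 39.1 to 90.3 FPKM in preleukemic samples, and of those of neutrophils 4 of 8, with sums of 1402 to 1730 FPKM and 147 to 851 FPKM. B-cell precursor markers were present in every sample, with sums of 4229 to 6609 FPKM in leukemic and 8089 to 10228 FPKM in preleukemic samples, and 4 of 16 were called lower. Of 7 markers of T and NK cells 5 were tested, and 1 was called lower, with sums of 12.8 to 34.5 FPKM in leukemic and 17.6 to 33.6 FPKM in preleukemic samples. Of 5 plasma cell markers 4 were tested, and 1 was called higher, with sums of 406 to 944 FPKM and 760 to 983 FPKM. The part of these cells in the levels of Cenpv, Cenpt or the other genes was not tested.

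CENP-A and its deposition factors had unequal fold changes, and none of them was called. Cenpa, which encodes the centromeric histone, was at 140.2, 117 and 61.8 FPKM in leukemic and at 79.5, 51.1, 79.4 and 72.4 FPKM in preleukemic samples. Leukemic 1 and leukemic 2 lay above every preleukemic sample and leukemic 3 lay within their range, and the log2 fold change was 0.52 (SE 0.29, adjusted p = 0.240). As each sample was left out, the log2 fold change ran from 0.29 (without leukemic 1, adjusted p = 0.529) to 0.87 (without leukemic 3, adjusted p = 0.0436, limma). Only the fit without leukemic 3 called Cenpa. Leukemic 3 was the sample within the preleukemic range, so leaving it out raises the fold change in itself.

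Oip5, a MIS18 complex subunit that licenses centromeres for new CENP-A, was at 20.5, 16.3 and 12.3 FPKM in leukemic and at 12.9, 6.22, 10.1 and 9.69 FPKM in preleukemic samples. Only leukemic 3 and preleukemic 1 crossed, and the log2 fold change was 0.71 (SE 0.25, adjusted p = 0.0926). Mis18a, its partner in the MIS18 complex, had a log2 fold change of 0.15 (adjusted p = 0.521).

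Hjurp, the chaperone that carries CENP-A to the centromere, is named here after its values were seen. It was at 16.0, 13.0 and 11.0 FPKM in leukemic and at 15.6, 13.7, 16.2 and 14.5 FPKM in preleukemic samples, with a log2 fold change of −0.17 (SE 0.13, adjusted p = 0.374). The ratio of Cenpa to Hjurp FPKM was 8.77, 8.99 and 5.61 in leukemic samples and 5.08, 3.73, 4.90 and 4.99 in preleukemic samples. The ratios did not overlap between the groups. Of 10 ratios between partner genes, picked with the values known and so given without a test, this held for 2, and the other was Cenpt to Cenpc1, at 0.525, 0.526 and 0.702 against 0.390 to 0.444.

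Cenpb had the lowest log2 fold change of the 34 genes, of which Cenpj, Hjurp, Mis12 and Pmf1 were also below 0. CENP-B is the protein that binds a short DNA motif in the minor satellite repeats of mouse centromeres, and it is not required for centromere identity. Cenpb was at 72.5, 71.4 and 51.8 FPKM in leukemic and at 80.4, 76.2, 78.9 and 86.3 FPKM in preleukemic samples. Every leukemic sample lay below every preleukemic sample, but the log2 fold change of −0.31 (SE 0.13, unadjusted p = 0.0428) had an adjusted p of 0.133 (limma). When the samples were scaled to equal FPKM totals, which lowered the median of all genes to −0.17, the log2 fold change of Cenpb was −0.48 with an adjusted p of 0.0263.

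None of the scaffold genes of the CCAN was called, and their median log2 fold change was 0.38. Cenpc1, which encodes the CENP-C scaffold that joins CENP-A chromatin to the MIS12 complex, was at 27.2, 23.7 and 20.4 FPKM in leukemic and at 24.4, 19.8, 21.4 and 21.0 FPKM in preleukemic samples. Leukemic 3 lay among the preleukemic samples, and the log2 fold change was 0.12 (SE 0.12, adjusted p = 0.479). Cenpn, whose protein reads the CENP-A nucleosome directly, was at 34.4, 22.6 and 18.0 FPKM in leukemic and at 21.8, 12.6, 19.9 and 19.2 FPKM in preleukemic samples. Leukemic 3 lay below 3 of the 4 preleukemic samples, and the log2 fold change was 0.40 (SE 0.25, adjusted p = 0.288). Cenpl, the partner of Cenpn, gave 0.38 on the same scale.

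The CENP-H/I/K/M genes had the largest median log2 fold change of the complexes with more than 2 genes, 0.61, with a range of 0.49 to 0.69. Cenph was at 42.1, 26.4 and 22.2 FPKM in leukemic and at 23.7, 12.1, 19.1 and 17.5 FPKM in preleukemic samples. Leukemic 3 and preleukemic 1 crossed, and the log2 fold change was 0.69 (SE 0.27, unadjusted p = 0.034, adjusted p = 0.116). Cenpi, Cenpk and Cenpm, whose proteins form the rest of this CCAN subcomplex, had log2 fold changes of 0.49, 0.64 and 0.58, with adjusted p of 0.218, 0.135 and 0.219, and none of them separated the groups.

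Of the CENP-O/P/Q/U genes, which encode a CCAN subcomplex that in part binds microtubules and Polo-like kinase, Cenpq separated the groups. Cenpq was at 48.9, 42.1 and 32.7 FPKM in leukemic and at 29.2, 23.0, 32.5 and 30.9 FPKM in preleukemic samples. The gap between leukemic 3 and preleukemic 3 was narrow, and the log2 fold change was 0.49 (SE 0.17, adjusted p = 0.0865). As each sample was left out, the log2 fold change of Cenpq ran from 0.36 (without leukemic 1, adjusted p = 0.185) to 0.64 (without leukemic 3, adjusted p = 0.0453, limma). Only the fit without leukemic 3, its lowest leukemic sample, called Cenpq, and leaving that sample out raises the fold change in itself. Cenpu was at 6.42, 4.89 and 3.98 FPKM in leukemic and at 4.88, 2.15, 3.38 and 2.78 FPKM in preleukemic samples. Preleukemic 1 lay within the leukemic range, and the log2 fold change was 0.52 (SE 0.24, adjusted p = 0.170). Cenpp and Cenpo gave log2 fold changes of 0.50 and 0.10.

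Of the 4 genes of the MIS12 complex, the bridge from the CCAN to NDC80, 2 had a log2 fold change above 0, and none was called. Pmf1, which had the highest mean level of the 34 genes, was at 132.6, 101.1 and 95.4 FPKM in leukemic and at 108.9, 101.1, 110.1 and 125.6 FPKM in preleukemic samples. The groups overlapped widely, and the log2 fold change was −0.03 (95% interval −0.34 to 0.28, adjusted p = 0.877). It turned above 0 without leukemic 2, leukemic 3 or preleukemic 4. Nsl1 was at 17.8, 12.1 and 8.61 FPKM in leukemic and at 10.8, 6.30, 10.6 and 9.20 FPKM in preleukemic samples. Leukemic 3 lay below 3 of the 4 preleukemic samples, and the log2 fold change was 0.41 (SE 0.26, adjusted p = 0.292). Dsn1 and Mis12 gave log2 fold changes of 0.39 and −0.13, both with overlapping groups.

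The subunits of the NDC80 complex, the main microtubule coupler of the kinetochore, followed each other from sample to sample. Ndc80, Nuf2 and Spc25 were at 52.4 to 58.8 FPKM in leukemic 1, 38.8 to 45.5 FPKM in leukemic 2 and 26.4 to 30.3 FPKM in leukemic 3. In preleukemic samples they were lowest in preleukemic 2, at 19.6 to 23.6 FPKM, and at 27.4 to 40.5 FPKM in the other samples. Thus leukemic 3 lay within the preleukemic range for each of them, and their log2 fold changes were 0.34 to 0.43 with adjusted p of 0.279 to 0.379.

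Spc24, the remaining subunit, was at 91.8, 46.8 and 30.1 FPKM in leukemic and at 40.0, 22.6, 37.4 and 32.8 FPKM in preleukemic samples. Leukemic 3 lay below 3 of the 4 preleukemic samples, and the log2 fold change was 0.63 (SE 0.37, adjusted p = 0.260). Its direct partner is Spc25, and the ratio of Spc24 to Spc25 FPKM was 1.56 in leukemic 1 and 0.924 to 1.03 in the other 6 samples. A ratio well above 1 was thus seen only in leukemic 1.

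**Figure D2:**
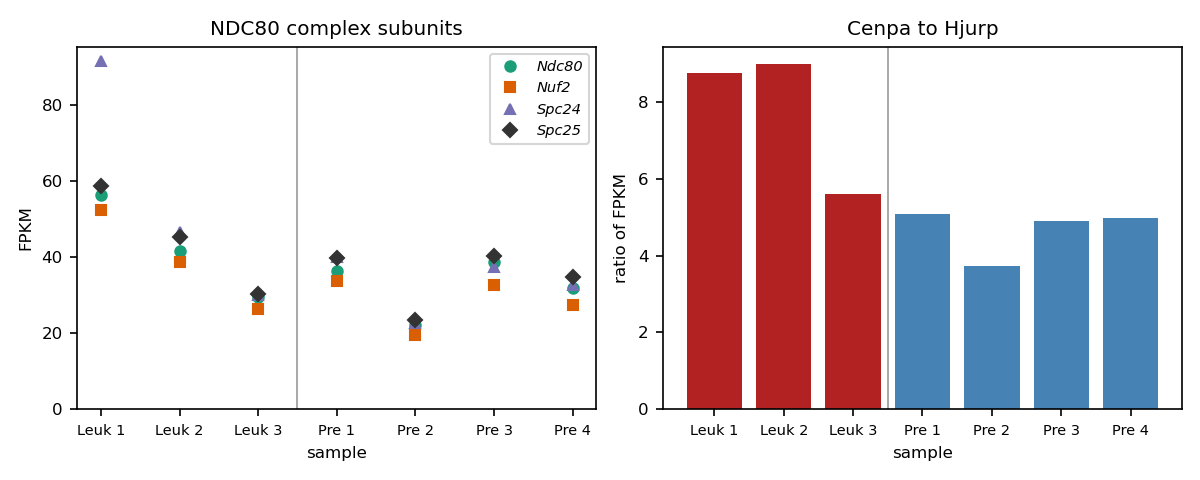
Left, FPKM of the 4 NDC80 complex genes in each of the 3 leukemic (Leuk) and 4 preleukemic (Pre) samples, where Spc24 departs from the others in leukemic 1 (91.8 FPKM). Right, the ratio of Cenpa to Hjurp FPKM in each sample, at 5.61 to 8.99 in leukemic and 3.73 to 5.08 in preleukemic samples.

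At the outer kinetochore, no gene was called. Zwint, which binds the KNL1 scaffold, was at 41.2, 58.9 and 48.0 FPKM in leukemic and at 47.1, 38.9, 44.2 and 45.3 FPKM in preleukemic samples, with a log2 fold change of 0.15 (adjusted p = 0.428). Ska1, a SKA complex subunit that binds microtubules, was at 11.8, 9.68 and 5.87 FPKM in leukemic and at 7.07, 3.68, 6.51 and 5.35 FPKM in preleukemic samples, with a log2 fold change of 0.59 (SE 0.26, adjusted p = 0.161). Ska2 was at 37.4, 31.0 and 23.6 FPKM in leukemic and at 32.4, 20.7, 33.0 and 29.2 FPKM in preleukemic samples, with a log2 fold change of 0.08 (adjusted p = 0.796). For each of these genes the groups overlapped, through leukemic 3 in both SKA genes, through leukemic 2 also in Ska2 and through leukemic 1 in Zwint. Ska3 gave a log2 fold change of 0.53 (adjusted p = 0.160).

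The corona, the outermost layer that catches microtubules early in mitosis, was represented by Cenpe and Cenpf. Cenpe, a kinesin that moves chromosomes to the spindle equator, was at 28.8, 22.2 and 16.8 FPKM in leukemic and at 20.1, 13.0, 18.6 and 17.01 FPKM in preleukemic samples. Leukemic 3 lay within the preleukemic range, and the log2 fold change was 0.36 (SE 0.20, adjusted p = 0.246). Cenpf gave 0.27 (adjusted p = 0.410). Cenpj, a centriole assembly factor despite its CENP name, was at 9.77, 9.18 and 14.5 FPKM in leukemic and at 12.03, 12.8, 15.1 and 12.5 FPKM in preleukemic samples, with a log2 fold change of −0.24 (adjusted p = 0.325). Leukemic 3 was the highest leukemic sample for Cenpj and the lowest for Cenpe.

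The order of the samples was shared by most of the genes. Leukemic 1 was the highest of the 7 samples for 27 of 34 genes and for 26.1% of all genes tested, and preleukemic 2 was the lowest for 28 of 34 and for 16.9% of all genes. Both held for 26 of 34 genes, against 9.81% of all genes. The exceptions were Hjurp, Cenpb, Cenpt, Mis12, Pmf1, Zwint, Cenpj and Cenpv. Both held for 8 of the 9 genes with a CHR in the promoter window and for 15 of the 22 without one. The median log2 fold changes of these sets were 0.37 and 0.38. Of the genes called, neither belonged to the shared order.

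**Figure D3:**
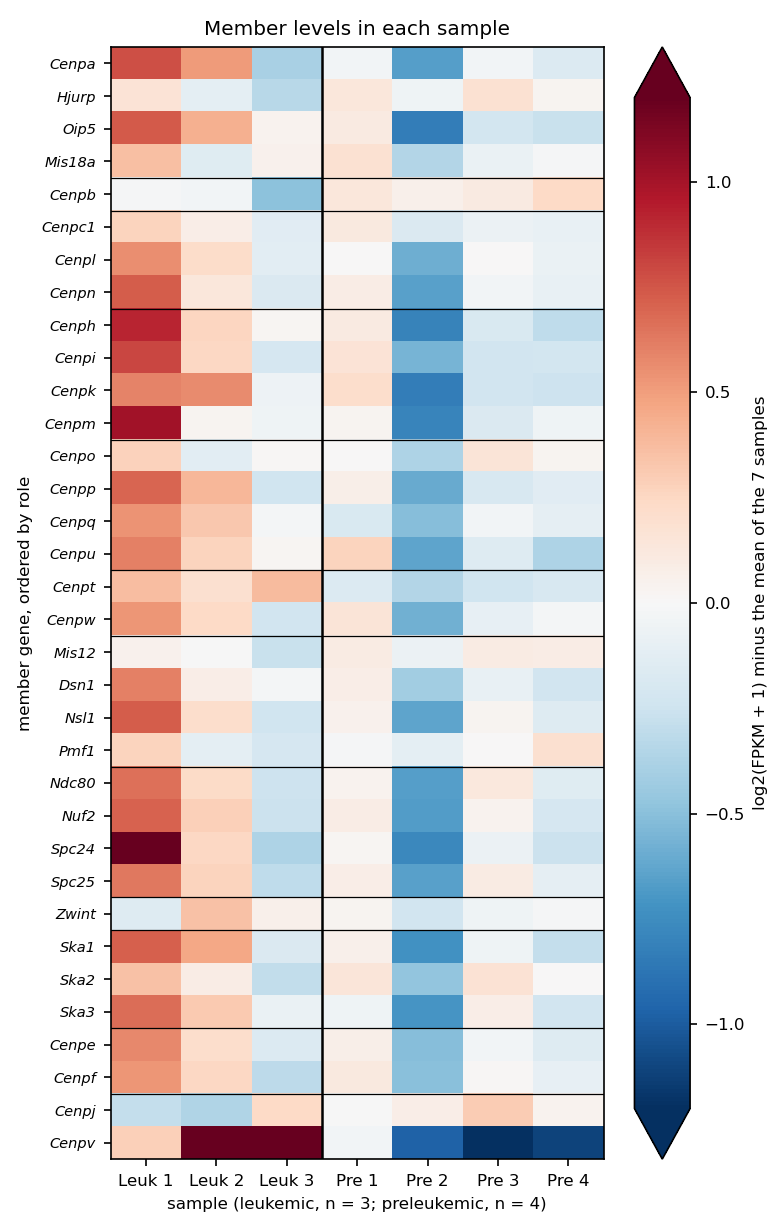
Log2(FPKM + 1) of each of the 34 genes minus its mean over the 7 samples, by sample (columns; leukemic, n = 3, left of the line, preleukemic, n = 4) and by gene in order of role (rows, with lines between complexes). Leukemic 1 is the highest and preleukemic 2 the lowest in 26 of the 34 genes, and values beyond the colour scale are drawn in its end colours.

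The spread within groups was large for these genes. The median SD of log2(FPKM + 1) was 0.37 within the leukemic and 0.30 within the preleukemic group, against 0.21 and 0.13 over all genes tested. The SD was larger among leukemic than among preleukemic samples for 30 of 34 genes (88.2%) and for 73.8% of all genes.

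The sample order of the mean level was also that of G2/M genes, and nearly that of S phase genes. The mean log2(FPKM + 1) of the 34 genes was 4.76, 4.47 and 4.16 in leukemic and 4.31, 3.74, 4.19 and 4.11 in preleukemic samples. For a list of 25 G2/M genes (among them Top2a and Ube2c), it was 6.26, 5.85 and 5.32 in leukemic and 5.55, 4.83, 5.46 and 5.26 in preleukemic samples. Leukemic 3 lay within the preleukemic range in both lists. The log2 fold change of the G2/M genes had a median of 0.58, was above 0 for 25 of 25, and 1 of 25 was called higher. For a list of 25 S phase genes (among them Pcna and Rrm2) the median was 0.49, and 2 of 25 were called higher. In mean log2(FPKM + 1) of that list, leukemic 3 (5.75) lay above preleukemic 3 (5.64), and the order was otherwise the same.

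Levels were also set against the G2/M list. The mean log2 level of the 34 genes minus that of the G2/M genes was 0.16 lower in leukemic samples, and the groups overlapped. Gene by gene, 9 of 34 were lower relative to the G2/M list in every leukemic sample than in every preleukemic sample (Hjurp, Cenpb, Mis12, Nsl1, Ndc80, Nuf2, Spc25, Ska2 and Cenpf), 0 were higher and 25 overlapped. Cenpt and Cenpv were among those that overlapped. Over all genes tested, 19.1% were lower and 1.68% higher in this way. The G2/M mean itself was 0.54 higher in leukemic samples, and its subtraction lowers the difference between the groups for every gene. The counts are therefore not read as a trait of the list. With the mean of the G2/M list as a covariate, an alternative chosen after the data were seen, the median log2 fold change of the 34 genes was −0.07 and 11 were above 0. In that fit 0 of the 34 genes were called by limma (2 higher and 5 lower at an unadjusted p under 0.05), and over all genes tested 100 were called higher and 39 lower.

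**Figure D4:**
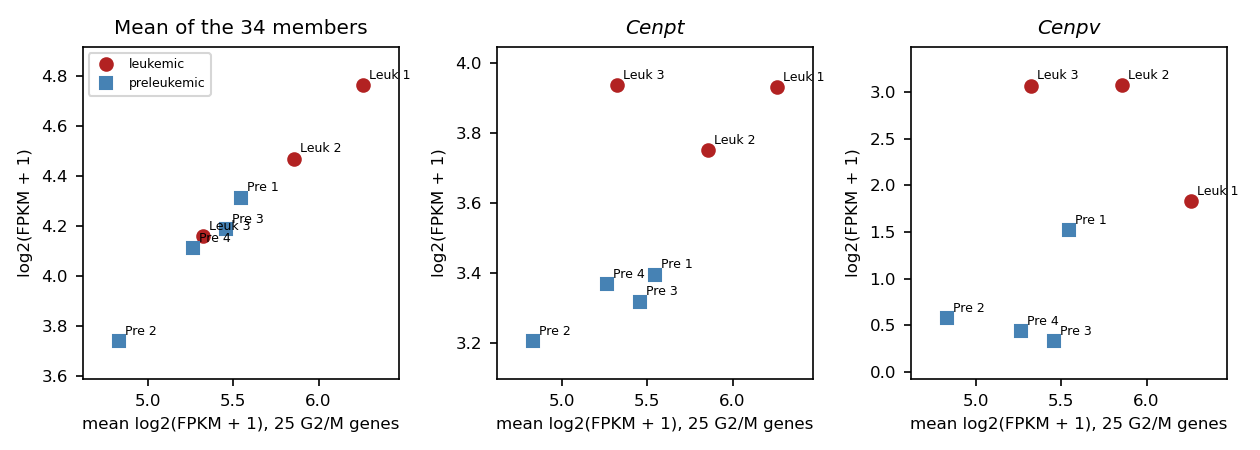
Mean log2(FPKM + 1) of the 34 genes (left), of Cenpt (middle) and of Cenpv (right) against the mean log2(FPKM + 1) of 25 G2/M genes, 1 point per sample (leukemic, circles; preleukemic, squares). The mean of the list runs with the G2/M genes across both groups, with leukemic 3 (5.32 on the G2/M axis) among the preleukemic samples. Cenpt and Cenpv are shown because they passed the test between the groups, and for both every leukemic sample lies above every preleukemic sample.

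Other genes that act at the centromere were compared as a list of 32 partners, which holds the KNL1 scaffold, the spindle checkpoint, the chromosomal passenger complex, shugoshins and the kinetochore motors. Of these, 29 had a log2 fold change above 0, with a median of 0.37, 0 were called higher and 2 (6.25%) were called lower, Clasp1 and Ndel1. Over all genes tested, 8.47% were called higher and 6.26% lower, so the share called lower was that of the background. At an unadjusted p under 0.05, 6 partners were higher and 2 were lower, whereas 34% of all genes passed in either direction. Clasp1, which stabilizes microtubule ends at the kinetochore and in interphase, was at 17.2, 21.6 and 17.04 FPKM in leukemic and at 25.6, 26.7, 26.1 and 29.0 FPKM in preleukemic samples. It fell by 0.51 on the log2 scale (SE 0.10, adjusted p = 0.0226), and the call was lost without preleukemic 2, 3 or 4 (adjusted p = 0.0619 to 0.0782). Ndel1, a regulator of the motor dynein, was at 17.3, 22.9 and 21.5 FPKM in leukemic and at 27.0, 26.4, 26.7 and 29.7 FPKM in preleukemic samples. It fell by 0.41 (SE 0.11, adjusted p = 0.0470), and the call was kept without leukemic 2 but lost without any other single sample. The groups did not overlap for either gene, and both genes also act outside mitosis. Such separation held for 6 of the 32 partners and for 32% of all genes tested. Without leukemic 3, 4 partners were called higher, and 711 genes over all genes tested.

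The partners with the highest mean level were not called. The histone chaperone Rbbp7 was at 191, 125 and 117 FPKM in leukemic and at 137, 102, 119 and 113 FPKM in preleukemic samples, with a log2 fold change of 0.26 (adjusted p = 0.339). The checkpoint gene Bub3 was at 113, 108 and 89.1 FPKM in leukemic and at 103, 78.1, 105 and 104 FPKM in preleukemic samples, with a log2 fold change of 0.09 (adjusted p = 0.665). Birc5, the survivin subunit of the chromosomal passenger complex, was at 176, 144 and 92.2 FPKM in leukemic and at 92.0, 49.1, 77.8 and 67.3 FPKM in preleukemic samples. Every leukemic sample lay above every preleukemic sample, though leukemic 3 and preleukemic 1 nearly met, and the log2 fold change was 0.92 (SE 0.27, adjusted p = 0.0608). Leukemic 1 was the highest sample for 30 of the 32 partners and preleukemic 2 the lowest for 26.

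Because the study describes extra copies of certain chromosomes in this leukemia (17, 9, 14, 12 and 15), the genes were also grouped by location. Its karyotypes show gains of these chromosomes in preleukemic samples too, so the groups do not set gained against normal chromosome content. Of the 34 genes, 7 lie on these chromosomes (Spc24, Cenpo, Ska3, Cenpj, Cenpm, Cenpq and Ndc80). Their median log2 fold change was 0.49 and 0 were called by limma, against a median of 0.39 for the 27 other genes, of which 2 were called higher. Over all genes tested, the median was 0.14 on the gained chromosomes and −0.05 on the others, and 15.5% of 2316 genes and 6.49% of 8225 genes were called higher. On chromosome 17, which holds Cenpq and Ndc80, 33.6% of 592 genes tested were called higher. The chromosome content of these 7 samples was not analysed here.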

How the data were processed

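RNA-seq libraries of BCP cells were made with a stranded kit, per the labels, and the authors deposited 1 FPKM value per gene and sample, with a floor of 0.01. The submitters' processing notes name STAR 2.5.0b, bedtools 2.17.0, Cufflinks 2.2.1, Bowtie, DESeq2 and the mm10 build, without roles, and whether counting used strand is not given in the sources used here. In RefSeq, 13 of the 34 genes overlap another gene. FPKM is not a count, so count models were not used. The 10541 genes whose FPKM summed to 10 or more over 7 samples were compared between the groups by limma 3.58.1 (R 4.3.3), with log2(FPKM + 1) as response, an intensity trend and no covariates. The fit was first tested on simulated data. The members and lists were chosen with earlier results of these data known. Values per sample are given for genes with an adjusted p under 0.05 and, per complex, for those with the highest mean or the largest fold change. Among partners they are given for called genes and for high means. Exceptions are Hjurp and Cenpw, and ranges are given for Ndc80, Nuf2 and Spc25. Depth, read from steps of low values (2243 genes, tolerance 0.1 of a fragment), was 13.6 to 16.1 M fragments, and 75.0 to 79.6% of low values were whole, too few to recover reads. Deviations of same-numbered samples had correlations of −0.09 to 0.05, and those of other pairs −0.11 to 0.11. Replicate numbers thus gave no sign of pairing, but so few pairs cannot exclude it. A spreadsheet had turned 27 gene names into dates. Motifs were counted and figures drawn in Python 3.11.15. Alternatives covered pseudocount, filter, scaling, trend, weights, replicate block and each sample left out.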

Additional observations from a re-analysis of the deposited data

Results flagged for a closer look

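Among 39 genes examined, a sample lay far from the others of the preleukemic group in 4, by the gap to its nearest neighbour relative to the range of the group. About 1 in 20 groups is flagged this way by chance. Preleukemic 2 was low for Cenpl (9.60 FPKM, next 14.1 FPKM), for Mis12 (23.0 FPKM, next 25.7 FPKM) and for Bub3 (78.1 FPKM, next 103 FPKM). Preleukemic 4 was high for Ndel1 (29.7 FPKM, next 27.0 FPKM). Groups of 3 were not examined.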

How the results depend on the processing

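Cenpt kept its direction under every change of pseudocount, filter, scaling, trend, weights, block and sample, and it lost its call with the replicate block, with the G2/M covariate and without preleukemic 3 or 4. With an FPKM sum of at least 70, which removed Cenpv, 1 gene of the list was called higher, and 548 higher and 403 lower were called over all genes tested. With equal FPKM totals, 1 gene (Cenpb) was called lower, 2236 genes were called lower over all genes, and small log2 fold changes turned to −0.0084 (Mis18a), −0.036 (Cenpc1), −0.044 (Cenpo), −0.0076 (Zwint), −0.076 (Ska2) and −0.074 (Bub3), while the median of all genes was −0.17. With sample quality weights Cenpo was at −0.036 and Ska2 at −0.065. The partners called lower were 1 without a filter, with median-of-ratios size factors, without the trend and with sample quality weights. The cause of these shifts was not tested.

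As each sample was left out, 0 to 3 genes of the list and 0 to 4 partners were called higher, 0 to 2 partners were called lower, 107 to 870 genes were called higher and 42 to 750 lower over all genes, and the median log2 fold change of the list ran from 0.20 to 0.60. The log2 fold change ran from −0.011 to 0.19 for Cenpo, −0.068 to 0.25 for Ska2, −0.18 to 0.059 for Pmf1 and −0.011 to 0.19 for Bub3. With the replicate block, to which preleukemic 4 adds nothing because it has no partner, 0 genes were called higher and 0 lower over all genes by limma (1307 and 1122 at an unadjusted p under 0.05, of them 5 and 0 of the list), Cenpt had an adjusted p of 0.138 and Cenpv of 0.175, and Pmf1 was at 0.026. As far as the labels say, the samples share only a number. With the G2/M covariate, chosen after the data were seen, 0 genes of the list and 0 partners were called by limma (4 partners higher and 3 lower at an unadjusted p under 0.05), 100 genes were called higher and 39 lower over all genes, and the median of the list was −0.072. The 3 leukemic and 4 preleukemic samples with large spread limit what could be called, and Cenpv rests on few fragments.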
